A study of Homo sapiens with 6 samples.

Results

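Fatty acid desaturases and elongases remodel fatty acids in the endoplasmic reticulum. Desaturases insert double bonds into acyl chains with electrons passed on by cytochrome b5, and elongases lengthen the chain by condensing it with malonyl-CoA. SCD and SCD5 make monounsaturated fatty acids, FADS1 and FADS2 make polyunsaturated fatty acids from dietary precursors, and the ELOVL enzymes differ in the chain length and saturation they prefer. The balance of monounsaturated and polyunsaturated acyl chains is known to influence how readily membranes are peroxidised, the process at the centre of ferroptosis.

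The genes described here are 10 fatty acid desaturase and elongase genes among the 60664 genes of the deposited count table, found by matching their Ensembl identifiers to the symbols SCD, SCD5, FADS1, FADS2, FADS3, ELOVL1, ELOVL4, ELOVL5, ELOVL6 and ELOVL7. They were selected on knowledge of the same comparison, since lower counts of SCD and FADS2 with P4HA3 overexpression had been seen before the family was put together. Every difference between the groups in these 10 genes is therefore a description, and it supports nothing by itself. Test outcomes for these genes are given as part of that description only. All 10 passed the filter on low counts, in both groups.

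The libraries came from SiHa PR, the parental line of a human cervical squamous cell carcinoma series from which lymph node metastatic derivatives had been raised. The 3 control samples are named only SiHa PR, and for this RNA-seq the study calls them control. It uses the name Vector in other assays. Whether the sequenced controls carried an empty vector is not given in the sources used here. The other 3 samples are SiHa PR cells that overexpressed P4HA3, an alpha subunit of collagen prolyl 4-hydroxylase. The study's methods describe a lentiviral vector for P4HA3 cDNA, and some of its assays used plasmid transfection. The paper does not say which of these made the sequenced cells. The question of the comparison was which transcripts change when P4HA3 is raised. No drug, dose or time is given for either group, and whether the overexpressing cells were 1 clone or a pool, and whether the 3 samples of a group were separate cultures, is not given in the sources used here. Total counts per library lay between 21773488 and 24939948. P4HA3 itself rose from 62 to 93 counts per control library to between 44775 and 49097 counts per overexpressing library, in the direction the sample names give.

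The growth protocol in the labels describes uterine smooth muscle, so the identity of the cells was checked against markers. The keratins KRT8, KRT17 and KRT18 and CDKN2A were abundant in all 6 libraries, and the summed level of 9 epithelial carcinoma markers was 7784 to 8955 CPM (counts scaled to library size) in control and 6572 to 7678 CPM in overexpressing libraries, so it moved with the group and its part in the results was not tested. The basal markers KRT5 and TP63 had at most 4 and 13 counts. KRT19 had 14 to 31 counts and EPCAM 116 to 150 counts over all libraries. CDH1 had 405, 352 and 397 counts in control and 206, 217 and 266 counts in overexpressing replicates 1, 2 and 3, so it moved with the group too. Of 6 smooth muscle markers, the defining genes MYH11, DES and CNN1 had at most 9, 8 and 1 counts, while SMTN (1948 to 2541 counts) and ACTA2 (161 to 204 counts) were present in every library. The 6 markers summed to 95.1 to 105 CPM in control and 94.2 to 112 CPM in overexpressing libraries. ACTG2, another of them, had 30, 40 and 44 counts in control replicate 3 and in P4HA3 overexpression replicates 1 and 3, and at most 1 count in the other 3 libraries, a split that does not follow the groups. Adipocyte markers summed to at most 2.63 CPM in any library, hepatocyte markers to at most 0.344 CPM and leukocyte markers to at most 0.0821 CPM. Fewer cells expressing a gene and less RNA of it per cell cannot be told apart in these bulk samples.

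The promoters of the 2 stearoyl-CoA desaturases are shown first, because SCD is the most abundant transcript of the family and SCD5 its scarce counterpart. The windows are the 250 bases upstream of the RefSeq start site (GRCh38.p14), chr10:100346983-100347232 on the plus strand for SCD and chr4:82798797-82799046 on the minus strand for SCD5, each written from its own 5′ end, with CCAAT boxes on either strand in capitals.
SCD: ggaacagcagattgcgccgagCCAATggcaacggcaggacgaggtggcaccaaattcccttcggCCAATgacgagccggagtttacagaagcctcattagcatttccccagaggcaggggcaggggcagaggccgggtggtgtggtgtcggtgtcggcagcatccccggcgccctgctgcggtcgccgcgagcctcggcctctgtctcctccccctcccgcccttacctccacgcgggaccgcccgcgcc
SCD5: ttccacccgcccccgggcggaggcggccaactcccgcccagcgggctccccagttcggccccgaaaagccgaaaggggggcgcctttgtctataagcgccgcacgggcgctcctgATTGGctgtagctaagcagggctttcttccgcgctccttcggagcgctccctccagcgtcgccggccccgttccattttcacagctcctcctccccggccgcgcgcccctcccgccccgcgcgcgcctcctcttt
The SCD window holds 2 CCAAT boxes, 229 and 186 bases upstream of the start site counted at their far ends, and the SCD5 window holds 1, on the opposite strand, 135 bases upstream. The CCAAT box is the element bound by NF-Y, which is known to act beside SREBP factors. It was found on either strand in the windows of 6 of the 10 genes (SCD, SCD5, FADS3, ELOVL1, ELOVL4 and ELOVL5) and in 32% of 35116 RefSeq promoter windows of the same length. The Sp1 site GGGCGG was found in windows of 9 of the 10 genes, all but ELOVL5, against 42.6% of all windows. The sterol response element TCACNCCAC was found in no window of the 10 genes and in 0.883% of all windows, and the DR4 element of LXR receptors, a direct repeat of AGGTCA spaced by 4 bases, in none and in 0.0142%. No match says only that these letters are not in these 250 bases.

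FADS1, FADS2 and FADS3 lie together on chromosome 11. FADS1 (61799627 to 61829318, minus strand, GRCh38) and FADS2 (61792980 to 61867354, plus strand) overlap, and FADS3 lies at 61873519 to 61892051 on the minus strand. Exons of FADS1 and FADS2 share 490 bases on opposite strands, 4.79% of the exon bases of FADS1. The libraries were made strand-specific but the strand setting of the counting is not known here, which leaves the assignment of such reads uncertain. FADS2 exons also share 49 bases with FEN1 on the same strand, and FEN1, a flap endonuclease, had a log2 fold change of -0.04 (standard error 0.0596). No pair of the 10 genes shared a stretch of 50 bases in their canonical transcripts, over 45 pairs.

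In control cells the levels of the 10 transcripts spanned about 2 orders of magnitude. Levels between genes are given as CPM per kb of the canonical transcript. SCD (chromosome 10, 100347233 to 100364826), the major stearoyl-CoA desaturase, stood at 364 ± 8.4 CPM per kb (SD, n = 3). FADS2 (82.8 ± 4.41) and the elongase ELOVL1 (80.3 ± 4.23) came next, and their control libraries overlapped. FADS1 followed at 54.8 ± 0.945 CPM per kb, separate from its neighbours, then ELOVL5 (46.7 ± 1.95) and FADS3 (45.6 ± 0.806), which overlapped each other. SCD5, ELOVL4, ELOVL7 and ELOVL6 formed a low group with means of 6.06, 5.30, 5.05 and 3.80 CPM per kb, in which SCD5 overlapped ELOVL4 and ELOVL4 overlapped ELOVL7. With P4HA3 overexpression SCD stayed first at 137 ± 10.5 CPM per kb, and the order below it changed. FADS2 dropped from rank 2 to rank 6 at 30.4 ± 2.66, and ELOVL1 and ELOVL5 took ranks 2 and 3 at 74.8 ± 4.8 and 49.3 ± 2.07. In the low group SCD5 moved from rank 7 to rank 9, below ELOVL4 and ELOVL7, and its libraries overlapped those of ELOVL7. The order depends on the transcript length used. Per kb of all annotated exons merged, ELOVL1 and ELOVL5 held ranks 2 and 3 in control cells already, since FADS2 has 10553 merged exon bases against 3091 in its canonical transcript.

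The desaturases and the elongases are described apart, with no test of a difference between them. All 5 desaturases had lower CPM in every overexpressing library than in any control library, and none of the 5 elongases was separated in either direction. Among all 15130 genes tested, 20.4% were lower without overlap and 19.7% higher without overlap. By edgeR's quasi-likelihood test over all genes (adjusted p under 0.05, referred to as called), 4 of the 10 genes were called lower, all of them desaturases, where 11.4% of all genes tested were called lower. None was called higher, where 9.36% of all genes were, and none was higher at an unadjusted p under 0.05 or with DESeq2 or limma-voom. Since the genes were chosen with this comparison known, nothing is read from these counts. The median log2 fold change was -0.70 over the desaturases and 0.08 over the elongases, beside 0.01 over all genes tested. After the correction for GC content and transcript length described below, these medians were -0.70, -0.10 and 0.02, so that of the elongases changed sign.

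**Figure D1:**
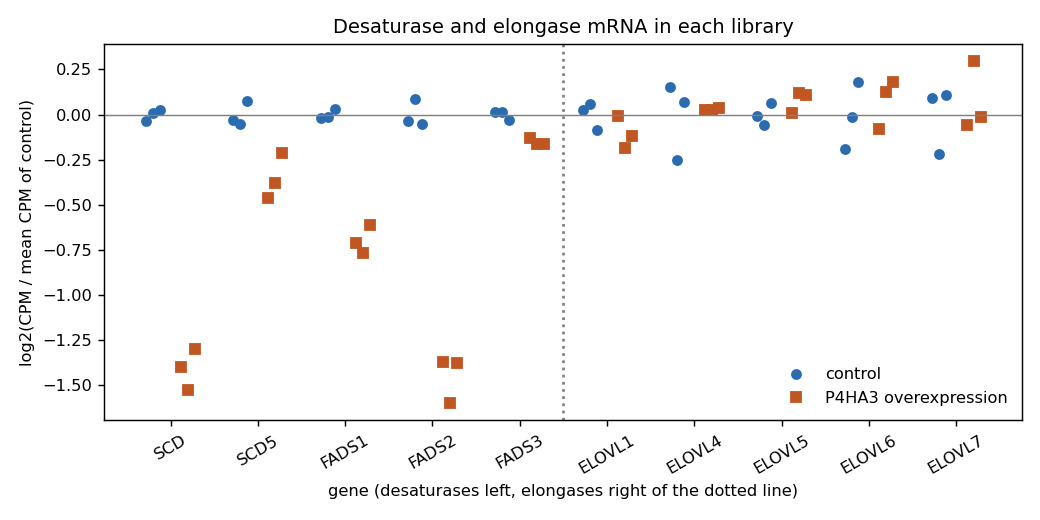
log2 of each library's CPM over the control mean for the 10 genes, desaturases left and elongases right of the dotted line (circles 3 control libraries, squares 3 P4HA3 overexpression libraries). The squares of all 5 desaturases lie below the circles, and those of the elongases mix with them.

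SCD, which introduces the first double bond into stearoyl-CoA and palmitoyl-CoA, was the most abundant desaturase and had one of the largest differences. Its level was 1859, 1922 and 1944 CPM in control replicates 1, 2 and 3 and 724, 664 and 775 CPM in P4HA3 overexpression replicates 1, 2 and 3. The highest overexpressing library was far below the lowest control library. The log2 fold change was -1.40 (standard error 0.0708), which leaves 37.8% of the control level. In raw counts this was 40956 to 47562 per control library and 14935 to 19651 per overexpressing library, so counting error is small beside the difference. With each library left out in turn the log2 fold change lay between -1.46 and -1.35.

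FADS2, the delta-6 desaturase that opens the conversion of linoleic and alpha-linolenic acid, had a log2 fold change as large as that of SCD. Its level was 249, 272 and 247 CPM in control replicates 1, 2 and 3 and 99.0, 84.6 and 98.6 CPM in overexpressing replicates. Its log2 fold change of -1.44 (standard error 0.0729) left 36.8% of the control level, and lay between -1.48 and -1.37 with each library left out. Ordered by log2 fold change from the lowest, FADS2 held rank 25 and SCD rank 28 of the 15130 genes. The ratio of SCD to FADS2 per kb was 4.17 to 4.64 in control and 4.31 to 4.63 in overexpressing libraries, ranges that overlapped.

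FADS1, the delta-5 desaturase that acts after FADS2 and yields arachidonic and eicosapentaenoic acid, showed a smaller difference. Its level was 236, 237 and 244 CPM in control and 146, 140 and 157 CPM in overexpressing replicates 1, 2 and 3. The groups did not overlap, and the log2 fold change was -0.70 (standard error 0.057), with 61.8% of the control level left. FADS2 therefore dropped relative to its neighbour, and the ratio of FADS2 to FADS1 per kb was 1.43 to 1.62 in control and 0.852 to 0.957 in overexpressing libraries.

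SCD5, the second human stearoyl-CoA desaturase, stood at 18.1, 17.8 and 19.4 CPM in control and 13.4, 14.1 and 15.9 CPM in overexpressing replicates 1, 2 and 3. Its libraries did not overlap between the groups. The log2 fold change was -0.35 (standard error 0.0922), and with 312 to 475 counts per library its counting error is larger than that of SCD. It was called lower with all libraries and not called in 4 of the 6 fits that left out 1 library (control replicate 1, 2 or 3, or P4HA3 overexpression replicate 3), where the log2 fold change was -0.36, -0.37, -0.30 and -0.42. The ratio of SCD to SCD5 per kb was 58.0 to 62.6 in control and 27.2 to 31.3 in overexpressing libraries. FADS3, the third gene of the chromosome 11 cluster, encodes a desaturase that acts on sphingoid bases. It stood at 80.0 to 82.6 CPM in control and 72.9 to 74.7 CPM in overexpressing libraries, a log2 fold change of -0.15 (standard error 0.0531) that was not called.

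Control and overexpressing libraries overlapped for each of the 5 elongases of the set. ELOVL5, which elongates polyunsaturated chains between the FADS2 and FADS1 steps, was at 129, 124 and 135 CPM in control and 130, 140 and 139 CPM in overexpressing replicates 1, 2 and 3. Its groups overlapped, and the log2 fold change was 0.08 (standard error 0.0578). ELOVL6, which extends palmitate to stearate and so makes substrate for SCD, was at 21.8, 24.7 and 28.3 CPM in control and 23.6, 27.2 and 28.2 CPM in overexpressing replicates. Its groups overlapped almost wholly, and the log2 fold change of 0.08 had a standard error of 0.107. ELOVL1, which acts on very long saturated and monounsaturated chains, had a log2 fold change of -0.10 (standard error 0.0655), with 111 to 123 CPM in control and 103 to 117 CPM with overexpression. ELOVL4, the elongase of the longest polyunsaturated chains, and ELOVL7 had log2 fold changes of 0.02 and 0.08 with standard errors of 0.107 and 0.119, at 13.4 to 24.0 CPM in all libraries. With edgeR, DESeq2 and limma-voom alike, 0 of the 5 were called and 0 had an unadjusted p under 0.05. Without the 3 libraries with ACTG2 counts, which leaves 2 control libraries and 1 overexpressing library, ELOVL1 was called lower (-0.22) and ELOVL7 higher (0.35), while SCD was at -1.50, FADS2 at -1.61, FADS1 at -0.75 and SCD5 at -0.33. The lone overexpressing library is assumed in that fit to vary like the 2 controls, so its calls carry no replicate check. The summed level per kb of the 5 elongases was 140 to 143 CPM in control and 137 to 141 CPM in overexpressing libraries, while that of the 5 desaturases was 541 to 561 CPM and 232 to 261 CPM. SCD made up 51.8% to 53.2% of the summed level of all 10 genes in control and 34.4% to 36.9% in overexpressing libraries.

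The behaviour of the elongases listed does not extend to the whole ELOVL family. ELOVL3, an elongase of saturated and monounsaturated chains that is not among the 10 genes, was at 29.5, 29.1 and 27.1 CPM in control and 18.2, 15.8 and 17.6 CPM in overexpressing replicates 1, 2 and 3. It fell by 0.73 on the log2 scale (standard error 0.0828, adjusted p = 0.000938, edgeR's quasi-likelihood test) and was called lower in 16 of 16 alternatives, 1 of which has a single overexpressing library. ELOVL2, a polyunsaturated chain elongase, and FADS6 had 0 counts in all 6 libraries, which allows up to 3 counts in each. Of the sphingolipid desaturases, DEGS1 was at 232 and 231 CPM in control and overexpressing cells (log2 fold change -0.01, standard error 0.0529) and was not called, and DEGS2 had at most 6 counts.

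Composition of the transcripts moved with the differences and was taken into account. Over all genes, the log2 fold change had a Spearman's rho of -0.58 with GC content (15107 genes, which share the same 6 libraries). The 5 desaturases have a GC content between 46.5% and 62.7%, ELOVL1 55.2%, and the other 4 elongases between 37% and 41.4%. After removal of the trend that every library showed with GC content and transcript length, the log2 fold change was -1.47 for SCD, -1.26 for FADS2, -0.70 for FADS1 and -0.34 for SCD5. The sign of the remaining 6 genes turned. FADS3 was then at 0.10, ELOVL1 at 0.04, ELOVL5 at -0.08, ELOVL6 at -0.10, ELOVL7 at -0.15 and ELOVL4 at -0.16, none of them called. No direction is given for these 6 genes. Over all genes the correction turned 1731 lower and 1416 higher calls into 1202 and 1603.

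The enzymes that supply the desaturases with acyl chains were counted next. The share of all genes called (11.4% lower, 9.36% higher) is the background for this and every following list with all libraries and no correction. With the GC and length trend removed, 1202 of 15130 genes were called lower and 1603 higher. These lists too were chosen with earlier results of these data known. Their counts and p-values are therefore a description, and they support nothing by themselves. Of 9 genes for citrate export, acetyl-CoA and fatty acid synthesis, 8 were tested, 6 were called lower and 0 higher, with a median log2 fold change of -0.36, by edgeR's quasi-likelihood test, DESeq2 and limma-voom alike. At an unadjusted p under 0.05, 1 was higher. ACACB (-0.07) and ME1 (0.18, higher in every overexpressing library) were not called, and THRSP was not tested. FASN, the fatty acid synthase, fell from 533 ± 34.1 to 335 ± 7.01 CPM (SD, n = 3), which is -0.67 on the log2 scale (adjusted p = 0.000436 from edgeR, standard error 0.0616). The mitochondrial citrate carrier SLC25A1 and MID1IP1, an activator of acetyl-CoA carboxylase, fell by 0.53 and 0.49 on the log2 scale. With the GC and length trend removed, FASN was at -0.47, SLC25A1 at -0.25 and MID1IP1 at -0.37, all still called. ACACA, the carboxylase itself, fell by 0.24, and ACLY, the ATP citrate lyase, fell by 0.19 (standard error 0.0542, adjusted p = 0.0336 from edgeR). Leaving out control replicate 1, control replicate 2 or the overexpressing replicate 3 ended both calls, and leaving out the overexpressing replicate 2 ended that of ACLY, with log2 fold changes between -0.26 and -0.20 for ACACA and between -0.21 and -0.17 for ACLY in the fits that left out 1 library. These values are RNA only. By RT-qPCR the paper reports unaltered ACLY mRNA when P4HA3 was changed, and by western blot more ACLY protein with P4HA3 overexpression.

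Among 21 transcriptional regulators of desaturase genes, 20 were tested, 8 were called lower and 2 higher. SREBF1, the sterol regulatory factor that drives SCD and FADS promoters, fell from 330.5 ± 23.0 to 167 ± 16.5 CPM (SD, n = 3), which is -0.99 on the log2 scale (adjusted p = 0.000242 from edgeR, standard error 0.0803). SREBF2, its counterpart for cholesterol synthesis, and INSIG1, the sterol-sensing anchor of SREBP processing, fell by 0.56 and 0.61. With the GC and length trend removed, SREBF1 was at -0.77, SREBF2 at -0.43 and INSIG1 at -0.67, all still called. NFYB and MBTPS2 were called higher at 0.39 and 0.25, and both calls were lost with the GC and length trend removed, where NFYB was at 0.13 and MBTPS2 at 0.06. With the trend removed 5 regulators were called lower and 0 higher, and their median log2 fold change was -0.07, against -0.20 without the correction. Without control replicate 1 or control replicate 2, 3 regulators were called lower, and without P4HA3 overexpression replicate 3 it was 4. With 0 called higher in these 3 fits, the calls of NFYB and MBTPS2 were lost there too. Of all genes, 552 of 15331, 371 of 15380 and 629 of 15358 were called lower in these 3 fits, in that order. Called higher were 229, 163 and 275.

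The partner enzymes of the elongases in the same cycle moved both ways. Of 7 genes, 6 were tested, 1 was called lower and 2 higher. HACD2, a 3-hydroxyacyl-CoA dehydratase, had a log2 fold change of 0.32, HSD17B12, the 3-ketoacyl-CoA reductase, of 0.20, and TECR, the trans-2-enoyl-CoA reductase, of -0.39 (edgeR, adjusted p = 0.0187, 0.0489 and 0.0121). With the GC and length trend removed these were 0.13, 0.03 and -0.16, and HSD17B12 was no longer called. HSD17B12 was called in 7 of 16 alternatives, with adjusted p between 0.000457 and 0.692 (edgeR, DESeq2 or limma-voom), and its call was also lost with limma-voom, with library-size scaling and in 5 of the 6 fits that left out 1 library. None of the 3 genes was called when control replicate 1, control replicate 2 or the overexpressing replicate 3 was left out. For cytochrome b5 and its reductases, which bring electrons to the desaturases, 0 of 6 genes were called by edgeR, DESeq2 or limma-voom. At an unadjusted p under 0.05, 2 were lower and 1 higher by edgeR, and with the GC and length trend removed 1 was called higher.

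Fatty acid activation and the fate of the acyl chains were covered by the remaining lists. Of 13 acyl-CoA synthetase genes 8 were tested and 4 were called lower and 0 higher, with SLC27A1, SLC27A3 and SLC27A4 (fatty acid transport proteins) at -0.59, -0.49 and -0.27. With the GC and length trend removed, SLC27A1 was at -0.37, SLC27A3 at -0.24 and SLC27A4 at -0.04, and only SLC27A1 of these kept its call. Over the whole synthetase list, 4 genes were still called lower and 0 higher then, not all of them the same genes. The list's median log2 fold change was -0.26, against -0.20 without the correction. Of 12 genes that place acyl chains into phospholipids, 2 were called lower, LPCAT4 (-0.54) and LPCAT3 (-0.47), a lysophospholipid acyltransferase that favours polyunsaturated chains. Of 4 genes linked to membrane saturation sensing, TLCD1 fell by 0.71 (standard error 0.108, adjusted p = 0.00306 from edgeR). With the GC and length trend removed, LPCAT4 and LPCAT3 were at -0.40 and TLCD1 at -0.51, all still called. Of 7 genes of peroxisomal chain shortening 6 were tested and 0 were called by edgeR or limma-voom and 1 by DESeq2. At an unadjusted p under 0.05, 2 were lower and 3 higher by edgeR. The count of called acyl-CoA synthetases was 1 without control replicate 1 or 2, 2 without P4HA3 overexpression replicate 3, and 3 by DESeq2. Over all lists, 22 of the 70 tested pathway genes outside the 10 were called lower and 4 higher, and no list was tested against another or against all genes. Without control replicate 1 or control replicate 2 it was 11 lower and 0 higher, without P4HA3 overexpression replicate 3 it was 14 and 0. Calls over all genes fell in these 3 fits too, to 552 of 15331, 371 of 15380 and 629 of 15358 lower. Without the overexpressing replicate 1 there were 11 higher calls in the lists and 2814 over all genes. Without the overexpressing replicate 2 there were 2 and 884.

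**Figure D2:**
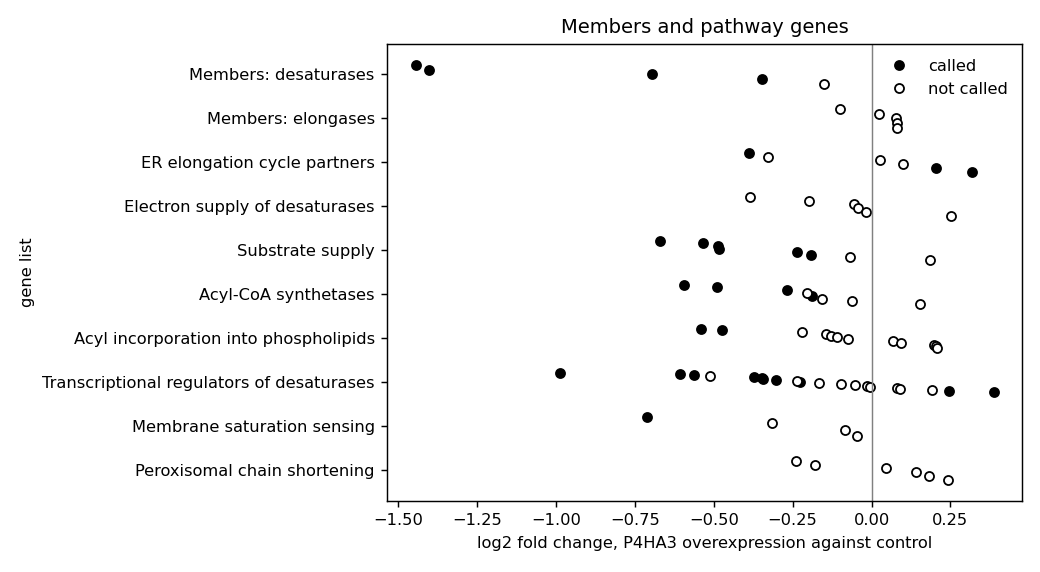
log2 fold change (P4HA3 overexpression against control, 3 libraries each) of each tested gene in the desaturases, the elongases and 8 lists of pathway genes, filled where called at an adjusted p under 0.05 by edgeR and open where not. SCD and FADS2 lie farthest left, near -1.4, and SREBF1 is the lowest of the other genes.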

How the data were processed

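RNA-seq counts of 3 control and 3 P4HA3 overexpression samples of SiHa PR cells were analysed. Per the study's methods, the authors selected poly-A RNA for stranded libraries, mapped the reads to GRCh38 with STAR and counted per gene with HTSeq. The submitters' processing notes name HISAT2 instead. Versions are not given in the sources used here. The deposited values are raw counts, with no normalization.

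Differences were fitted with edgeR 4.0.16 (R 4.3.3): filterByExpr (minimum count 10), TMM factors and the two-sided quasi-likelihood test with Benjamini-Hochberg adjustment over 15130 genes. The code was also run on counts simulated from the fitted dispersions. Those counts carry no trend with GC content or length, so that run says nothing about such trends. Standard errors are the log2 fold change divided by the root of F. CPM is TMM-normalized. Symbols, lengths and GC content came from GENCODE v44 (60463 of 60664 identifiers matched), promoters from RefSeq. Promoter windows of FADS and other genes that overlap exons are not printed.

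The 10 genes and the pathway lists were chosen with earlier results of these data known. Genes outside the 10 were named by rule: P4HA3, the family members outside the set, SREBF1, SREBF2, FASN, ACLY, ACACA, and up to 3 called genes per direction in each list with the largest change, plus the 5 most correlated with SCD. FEN1 was named for its overlap. Alternatives were RLE and library-size scaling, DESeq2 1.42.0, limma-voom (limma 3.58.1), other filters, the replicate block, a GC and length correction (mgcv 1.9.3), an adjusted p under 0.01, merged exon length and each library left out. Leaving out the 3 libraries with ACTG2 counts was added after seeing the data.

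Sampling noise was exceeded by the spread within each group (chi-square per degree of freedom 5.17 to 17.8). Where nothing says that they were separate cultures, the p-values measure only the spread between these samples. Counts of 0 and their limits cover counting error only.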

Additional observations from a re-analysis of the deposited data

How the results depend on the processing

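With each library left out in turn, 3 to 4 of the 10 genes were called lower and 0 higher, and the log2 fold change lay between -1.46 and -1.35 for SCD, -1.48 and -1.37 for FADS2, -0.74 and -0.66 for FADS1, -0.42 and -0.29 for SCD5, -0.08 and 0.11 for ELOVL4, -0.01 and 0.18 for ELOVL6 and -0.04 and 0.15 for ELOVL7. The signs that turned were ELOVL6 without control replicate 1 (-0.0097), ELOVL4 and ELOVL7 without control replicate 2 (-0.083 and -0.014) and ELOVL7 without P4HA3 overexpression replicate 2 (-0.038). Pathway genes called lower then numbered 11 to 24 and higher 0 to 11, and all genes called lower 371 to 2716 and higher 163 to 2814. The GC and length correction gave 0.10 for FADS3, 0.042 for ELOVL1, -0.16 for ELOVL4, -0.077 for ELOVL5, -0.10 for ELOVL6 and -0.15 for ELOVL7, and it removes any group difference that follows GC content or length, whatever its source. Libraries of the same replicate number deviated together with correlations of 0.25, -0.05 and 0.03, and those of unlike number with -0.30 to 0.27. The deviations also hold each library's own trend with GC content, so they cannot tell whether the numbers pair the samples. The replicate block gave 2138 genes called higher and changed no call of the 10 genes, and the replicate block with the correction gave 2136, with FADS3 at 0.10, ELOVL1 at 0.042, ELOVL4 at -0.15, ELOVL5 at -0.077, ELOVL6 at -0.10 and ELOVL7 at -0.15. Without the 3 libraries with ACTG2 counts, a fit with 1 overexpressing library that is assumed to vary like the 2 controls, 1 of the 10 genes was called higher, ELOVL1 was at -0.22 and ELOVL7 at 0.35, 13 pathway genes were called higher, and 3186 genes were called lower and 3579 higher. Library-size scaling gave 2 pathway genes called higher, and no filter gave 2384 genes called higher. At an adjusted p under 0.01, 11 pathway genes were called lower and 0 higher, and 507 and 221 of all genes. Per kb of merged exons the control level was 4.35 CPM for SCD5, 23.4 for FADS1, 24.3 for FADS2, 13.0 for FADS3, 47.0 for ELOVL1, 33.9 for ELOVL5 and 4.38 for ELOVL7. The cause of these shifts was not tested.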

Other observations

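As a description, the genes whose log2 CPM followed SCD most closely over the 6 libraries were sought among 9237 other genes that averaged 10 CPM or more. FADS1 ranked 1 (Pearson's r = 0.999) and FADS2 ranked 4 (r = 0.997). The other genes among the first 5 were ARAP3, ZNF687 and ADCY3, with r between 0.996 and 0.998 and log2 fold changes of -0.31, -0.33 and -0.46. SREBF1 ranked 42, ELOVL3 ranked 46, FADS3 ranked 251 and SCD5 ranked 645. The 5 elongases of the set ranked from 2874 (ELOVL1, r = 0.61) to 6010 (ELOVL5, r = -0.63). All these correlations include the difference between the groups and share the same 6 libraries.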
